A study of Mus musculus with 8 samples.

Results

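Intergenic H3K9ac sites far from genes were described in bone marrow (BM) cells of C57BL/6 mice. Peaks of the 6 deposited lists were merged where they overlapped by at least 1 bp, and a merged region was kept as a consensus site when at least 2 lists had a peak in it. An intergenic site overlapped no protein-coding gene body and lay more than 10 kb from every protein-coding transcription start site (TSS). This rule gave 7193 intergenic sites among 37696 consensus sites (19.1%) and 64462 merged regions, the others of which had a peak in 1 list. All mice carried the *Nup98-HOXD13* transgene, a fusion gene used as a model of myelodysplastic syndrome, and the serine variant of *GFI1* (*GFI1-36S*), its asparagine variant (*GFI1-36N*) or an allele with low expression (*GFI1-KD*). In each genotype, 1 library came from mice without curcumin (vehicle) and 1 from mice given 20 mg/kg curcumin weekly by intraperitoneal injection, so no difference between groups has a replicate check and none was tested. The paper's methods name frozen BM cells and no sorting, whereas the title of its figure on these data names c-kit-positive cells. In a mixture of cells, fewer cells carrying a mark and less of the mark per cell cannot be told apart. How many mice stood behind a library, and their age, are not given in the sources used here.

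H3K9ac, the acetylation of lysine 9 on histone H3, is laid down by acetyltransferases such as GCN5 and PCAF and is found at active promoters and active enhancers. Enhancers are stretches of DNA, often far from the gene they act on, that bind transcription factors and raise transcription. In blood cells many are active in 1 lineage only, and GFI1 is a repressor that recruits histone deacetylases to its target sites. A mark far from a coding gene can also sit at the promoter of a noncoding RNA. The nearest gene is given below as a position, and no site was shown to act on it.

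A few of these sequences show what the sites are like. Each line gives 300 bp of GRCm38.p6 (the mm10 assembly), plus strand, centred on the strongest summit of a site, and capitals mark matches to the 13 short motifs described further below. The first is from the strongest intergenic site, the second lies in the site of the gene of the microRNA let-7i and the third in that of *Mir223*. The fourth lies downstream of *Gfi1* itself and the fifth in the largest cluster of sites. The last is from a site in the T-cell receptor gamma locus that was found with curcumin but not with vehicle in *GFI1-36S*.
Upstream of Chd2, chr7:73557868-73558167: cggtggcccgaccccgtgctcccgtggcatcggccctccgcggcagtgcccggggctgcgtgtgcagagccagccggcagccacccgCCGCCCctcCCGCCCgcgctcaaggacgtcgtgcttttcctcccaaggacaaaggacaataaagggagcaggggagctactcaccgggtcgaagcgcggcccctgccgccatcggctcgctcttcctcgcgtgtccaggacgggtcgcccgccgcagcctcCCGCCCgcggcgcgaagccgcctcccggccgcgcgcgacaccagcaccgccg
let-7i site, chr10:122985374-122985673: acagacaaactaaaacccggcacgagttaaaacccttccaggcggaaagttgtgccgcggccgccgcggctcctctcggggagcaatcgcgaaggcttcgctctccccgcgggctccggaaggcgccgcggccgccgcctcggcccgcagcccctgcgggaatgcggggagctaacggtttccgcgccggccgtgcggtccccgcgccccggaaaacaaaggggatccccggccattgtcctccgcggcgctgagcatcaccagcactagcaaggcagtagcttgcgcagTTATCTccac
Mir223 site, chrX:96241036-96241335: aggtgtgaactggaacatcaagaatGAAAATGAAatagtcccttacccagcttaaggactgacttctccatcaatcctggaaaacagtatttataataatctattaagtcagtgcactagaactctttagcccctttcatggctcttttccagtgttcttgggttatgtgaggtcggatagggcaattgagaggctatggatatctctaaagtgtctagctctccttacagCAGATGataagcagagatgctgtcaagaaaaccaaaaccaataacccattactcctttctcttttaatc
Downstream of Gfi1, chr5:107688211-107688510: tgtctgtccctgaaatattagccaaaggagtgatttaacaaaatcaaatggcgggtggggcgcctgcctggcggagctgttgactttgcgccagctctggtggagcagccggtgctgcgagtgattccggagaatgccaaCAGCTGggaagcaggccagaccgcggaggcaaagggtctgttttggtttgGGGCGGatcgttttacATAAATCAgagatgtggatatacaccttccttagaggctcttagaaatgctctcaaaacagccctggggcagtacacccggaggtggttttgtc
Downstream of Zfp36l2, chr17:84121245-84121544: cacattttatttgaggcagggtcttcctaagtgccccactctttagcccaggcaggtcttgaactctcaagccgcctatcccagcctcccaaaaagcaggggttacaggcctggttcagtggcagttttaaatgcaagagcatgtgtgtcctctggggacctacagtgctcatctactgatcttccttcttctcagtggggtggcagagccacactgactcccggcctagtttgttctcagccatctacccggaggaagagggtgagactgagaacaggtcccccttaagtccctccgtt
T-cell receptor gamma, chr13:19309502-19309801: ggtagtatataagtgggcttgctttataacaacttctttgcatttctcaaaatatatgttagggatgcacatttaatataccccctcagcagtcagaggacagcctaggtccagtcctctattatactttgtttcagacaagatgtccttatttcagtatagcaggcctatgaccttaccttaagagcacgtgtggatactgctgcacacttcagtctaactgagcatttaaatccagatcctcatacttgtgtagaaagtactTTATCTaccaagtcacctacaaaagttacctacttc
The *Chd2* window was 75% G and C and its capitals are 3 SP/KLF boxes. The *Mir223* and T-cell receptor windows were 39.7% and 39.3% G and C, and the *Zfp36l2* window held none of the 13 motifs. At *Gfi1* the capitals mark an E-box, a HOX and an SP/KLF match.

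In 14 intergenic sites the annotation placed a microRNA gene, and 7 of these genes had mature sequences in the RefSeq table of the same build. The products of 3 of them are shown because their sites differed in how widely they were marked, with the seed (bases 2 to 8) in capitals.
mmu-let-7i-5p: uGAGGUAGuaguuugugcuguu
mmu-miR-223-3p: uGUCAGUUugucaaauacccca
mmu-miR-148a-3p: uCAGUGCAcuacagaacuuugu
None of the 3 seeds is shared. The let-7i site, chr10:122982980-122988628, lay 11.2 kb downstream of *Mon2* and had a fold enrichment of 34.8 and 24.6 in *GFI1-36S* (vehicle and curcumin), 29.2 and 38.2 in *GFI1-36N*, with 40.9 and 33.0 in *GFI1-KD*. It was therefore marked in every library. Fold enrichment is the ratio that the peak caller gives between the pileup at a summit and the background expected there. It depends on each library's own background and is not scaled between libraries. The site of *Mir223*, a microRNA abundant in neutrophils and monocytes, spanned chrX:96239860-96244886, 48.5 kb from the *Vsig4* TSS. Its fold enrichment was 17.0 in *GFI1-36S* vehicle, 19.7 and 12.7 in *GFI1-36N*, with 26.1 and 21.5 in *GFI1-KD*, and no peak was listed in *GFI1-36S* curcumin. The *Mir148a* site had a peak in 3 libraries, at 5.88 in *GFI1-36N* curcumin and at 8.36 and 5.31 in *GFI1-KD*. The mark at *Mir223* was thus missing from 1 library and that at *Mir148a* from 3.

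The library labelled *GFI1-36S* curcumin stood apart from the other 5. It had 20354 peaks, against 30784 to 49213 in the others. Promoter peaks were present at 11 of 12 T-cell markers in it (4 to 7 in the others), at 1 of 12 neutrophil and myeloid markers (8 to 12), at 3 of 10 erythroid markers (5 to 10), at 1 of 8 B-cell markers (2 to 4) and at 0 of 8 stem and progenitor markers (7 or 8). The part of these differences in the results below was not tested. For *GFI1-36S*, the treatments in the names of the lists are the reverse of those in the labels. The labels were followed, and an exchange would turn every *GFI1-36S* difference around. The names of the *GFI1-36N* lists also carry different allele codes for vehicle and curcumin, which the labels do not state, so that treatment and these codes cannot be told apart. No read totals were listed. The fragments at the summits of intergenic sites, recovered from the peak caller's fold enrichment and p, had medians of 27 to 34 per library, and all intervals given here cover counting error only.

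In the 6 libraries, 1209 to 6085 of the 7193 intergenic sites had a peak. In *GFI1-36S* these were 5230 sites (72.7%) with vehicle and 1209 (16.8%) with curcumin. The *GFI1-36N* libraries had 5344 (74.3%) and 6085 (84.6%) of them and the *GFI1-KD* libraries 5170 (71.9%) and 4362 (60.6%). The 5 other libraries thus covered most of the sites and *GFI1-36S* curcumin a minority of them. Intergenic sites took 10.3% of the peaks of that library and 16.4% to 19.2% of those of the others.

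**Figure D1:**
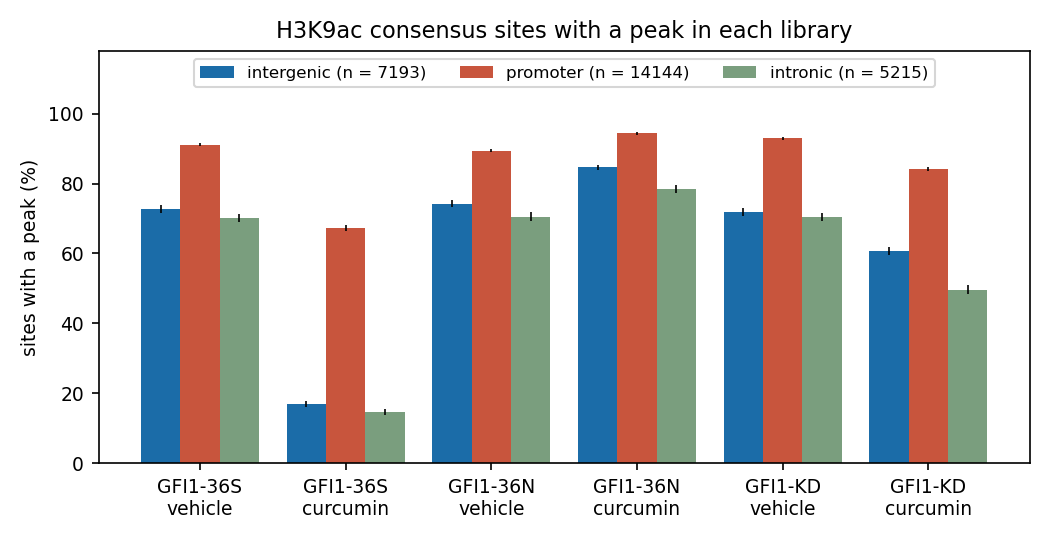
Share of consensus sites with a peak (%, vertical axis) in each of the 6 libraries, for intergenic, promoter and intronic sites; bars start at 0 and error bars are Wilson 95% intervals, for counting error only. In *GFI1-36S* curcumin 16.8% of the intergenic but 67.3% of the promoter sites had a peak.

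A peak in all 6 libraries was found at 805 intergenic sites (11.2%, Wilson 95% interval 10.5% to 11.9%). Promoter sites, those within 1 kb of a coding TSS, had one in all 6 at 63.7%, and intronic sites, those inside a coding gene, off its exons and more than 10 kb from every coding TSS, at 7.15%. The most common pattern, at 1987 intergenic sites (27.6%, beside 20.8% of all consensus sites), was a peak in all libraries but *GFI1-36S* curcumin. At the other end, 1923 sites (26.7%, beside 22.6%) had a peak in only 2 libraries. With *GFI1-36S* curcumin left out of the merging, 39.5% of 7065 intergenic sites had a peak in all 5 libraries.

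Intergenic sites were marked less strongly and less widely than promoters. The mean over libraries of the median fold enrichment was 4.63 ± 0.145 (SD, n = 6) at intergenic and 15.7 ± 2.26 at promoter sites, and intergenic sites were lower in 6 of 6 libraries (exact permutation test over libraries by sign flips, two-sided, adjusted p = 0.03125). Their peaks were also narrower, at 488 ± 48.5 bp against 1426 ± 233 bp, and were present in 63.5% ± 24.1 of the sites per library against 86.6% ± 10.1 (both lower in 6 of 6 libraries, exact p = 0.03125). Presence, here and below, was counted on the same peaks that admitted the sites, so its p describes the selected sites only. Promoter regions were also longer, with a median of 1872 bp against 710 bp, and the strongest peak of a region was taken in each library. How much of the differences follows from this was not tested. Against intronic sites the differences were small and went the other way. Fold enrichment at intronic sites was 4.14 ± 0.184, the width 442 ± 50.9 bp and the presence 59.0% ± 23.8, and intergenic sites were higher in 6 of 6 libraries for each (exact p = 0.03125). This is the smallest p that 6 libraries allow, it was the same after Benjamini-Hochberg adjustment over the 6 tests, and the libraries are 6 different groups, not replicates of one. Without any 1 library, *GFI1-36S* curcumin included, each difference kept its sign but the smallest possible p was 0.0625. When the same number of top peaks was taken from every list, the difference in width from intronic sites turned to −17.2 bp (exact p = 0.4375).

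**Figure D2:**
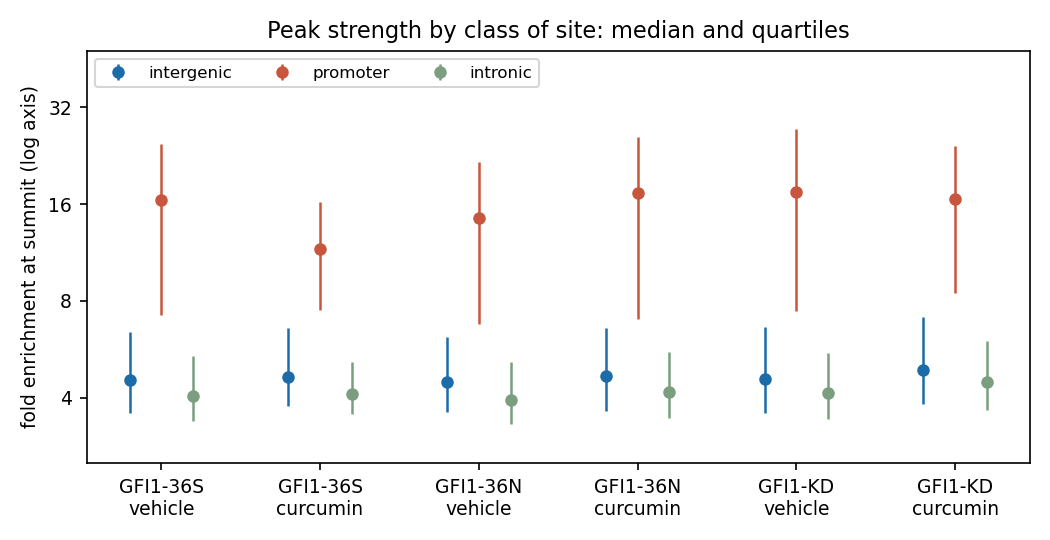
Fold enrichment at the summit (logarithmic vertical axis) of the peaks in intergenic, promoter and intronic sites of each library; points are medians and bars run from the lower to the upper quartile. Intergenic medians lie between 4.46 and 4.88 in all 6 libraries, below every promoter median.

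The threshold of 10 kb did not mark a step in strength. The 511 members between 10 and 12 kb from a coding TSS had a median percentile of fold enrichment of 42.8, ranked within each list with the strongest peak at 100, and 10.6% had a peak in all 6 libraries. The 543 consensus sites outside gene bodies at 8 to 10 kb had a median percentile of 42.8, and 13.8% were in all 6.

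The median distance from a site to the nearest coding TSS was 35.1 kb (quartiles 19.0 and 73.4 kb). Of the sites, 27.2% lay within 20 kb, 35.8% between 20 and 50 kb, 19.4% between 50 and 100 kb and 14.3% between 100 and 250 kb. A further 199 sites lay between 250 and 500 kb, and 34 beyond that. Sites upstream of their nearest TSS outnumbered those downstream, at 4408 (61.3%) against 2785 (38.7%). The rule leaves out coding gene bodies, which lie downstream of their own TSS, so a surplus upstream is partly built in. The share of sites with a peak in all 6 libraries was 12.7% in the nearest bin and 8.16% between 100 and 250 kb. In these bins the share of sites with a peak was 75.8% and 68.6% in *GFI1-36S* vehicle and 73.9% and 68.4% in *GFI1-KD* vehicle, whereas it was 73.6% and 74.7% in *GFI1-36N* vehicle and 57.9% and 65.2% in *GFI1-KD* curcumin. The libraries thus had no common order with distance.

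The farthest site, chr1:101901851-101903226, was 1649 kb downstream of *Cntnap5b*, which encodes a neuronal cell adhesion protein. It was marked in all 6 libraries, with a fold enrichment of 11.6 and 8.73 in *GFI1-36S*, 13.5 and 16.1 in *GFI1-36N*, with 14.2 and 12.3 in *GFI1-KD*. The next farthest were 2 sites 1326 and 1253 kb upstream of *Zeb2*, a zinc finger repressor used in blood and neural cells. The site at chr2:46443141-46444103 had peaks of 4.26 in *GFI1-36S* vehicle, 6.33 and 7.96 in *GFI1-36N*, with 5.18 and 8.13 in *GFI1-KD*. The other, chr2:46370612-46370890, had peaks of 2.94 and 2.54 in 2 libraries. Of these 3 sites the farthest had the highest fold enrichment in every library. A link between distance and strength was not tested.

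A noncoding gene lay at many of the sites. A long noncoding RNA gene was overlapped by 1493 sites (20.8%), and 601 (8.36%) lay within 1 kb of the TSS of one. These 601 sites had a median percentile of 55.9 and 28.1% of them were in all 6 libraries, beside 42.5 and 11.2% for all intergenic sites. No noncoding or other gene was annotated at 5501 sites (76.5%), of which 9.27% were in all 6 libraries. The 10 strongest sites found in all 6 libraries, ranked by their median percentile, lay between just over 10 and 82.9 kb from their nearest coding genes, among them *Chd2*, *A830005F24Rik*, *Rab11fip4*, *Tmem189*, *Zfp846*, *Kcnrg*, *Zfp958* and *Mon2*. At 8 of the 10 the TSS of a long noncoding RNA was inside the site, among them *Dleu2* (near *Kcnrg*), the host gene of microRNAs of the miR-15/16 family.

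The strongest site, chr7:73551878-73560425, lay just over 10 kb upstream of *Chd2*, a chromatin remodeller, and overlapped the noncoding gene *1810026B05Rik*. Its fold enrichment was 48.7 and 37.6 in *GFI1-36S*, 47.1 and 49.5 in *GFI1-36N*, with 52.7 and 49.997 in *GFI1-KD*. A second site farther upstream of *Chd2*, chr7:73616798-73619827, overlapped no noncoding gene and reached 35.3, 28.1, 36.6, 42.2, 35.5 and 37.3 in the same order. Both sites were lowest in *GFI1-36S* curcumin, and so were the other 8 of the 10. Median fold enrichment at promoter sites was lowest in that library too, at 11.6 against 14.5 to 17.5 in the others.

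Whether a site was kept in *GFI1-36S* curcumin went with its strength elsewhere. Of the 2792 intergenic sites with a peak in all 5 other libraries, those with a median percentile of 25 to 50 in these libraries had a peak in *GFI1-36S* curcumin at 77 of 654 (11.8%). Between 50 and 75 the share was 25.2% of 1613, between 75 and 90 it was 65.3% of 392, and above 90 all 56 sites had a peak (Wilson 95% interval 93.6% to 100%). Sites kept in all 6 libraries covered a median of 1417 bp and 21.0% lay within 1 kb of a long noncoding RNA TSS, whereas those missing from *GFI1-36S* curcumin alone covered 1013 bp and 8.35% did. A kept site was merged from the peaks of 6 libraries and a missing one from 5, so part of the difference in width may be built in. Strength, width and noncoding promoters thus moved together in this comparison. Which of them goes with the loss by itself was not tested.

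**Figure D3:**
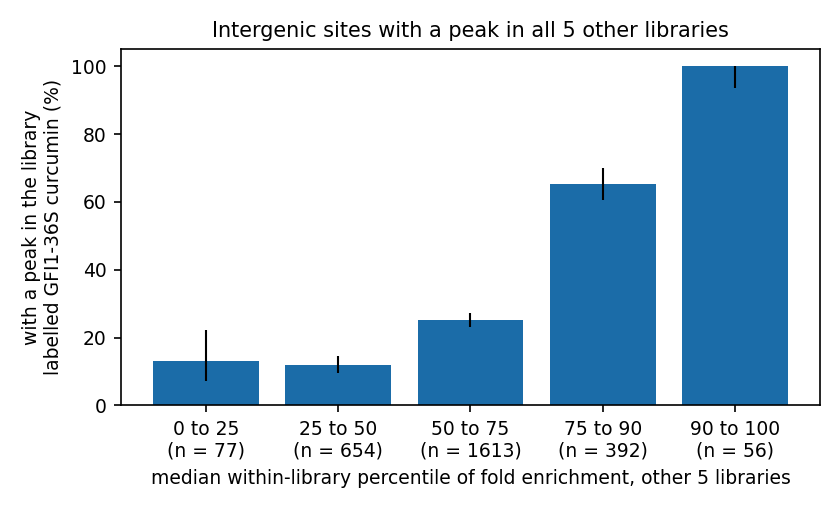
Share (%) of the intergenic sites with a peak in all 5 other libraries that also had a peak in *GFI1-36S* curcumin, against the median within-library percentile of fold enrichment in the other 5; bars start at 0, n is the number of sites and error bars are Wilson 95% intervals. The share is 11.8% to 13.0% in the 2 lowest bins and 100% in the highest.

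Curcumin and vehicle were compared within each genotype by whether a site had a peak in both libraries or in only 1. In *GFI1-36S*, 5424 intergenic sites had a peak in at least 1 library, and 1015 (18.7%, 17.7% to 19.8%) in both. Vehicle alone gave a peak at 4215 (77.7%, beside 57.2% of all consensus sites), and curcumin alone gave one at 194 (3.58%, beside 3.07%). In *GFI1-36N*, 4697 of 6732 sites (69.8%, 68.7% to 70.9%) were shared, 647 (9.61%, beside 8.56%) were found with vehicle alone and 1388 (20.6%, beside 16.3%) with curcumin alone. In *GFI1-KD*, 3547 of 5985 (59.3%, 58.0% to 60.5%) were shared, 1623 (27.1%, beside 25.9%) were found with vehicle alone and 815 (13.6%, beside 8.15%) with curcumin alone. Every one of these 6 shares was above that of all consensus sites, by the least in *GFI1-36S* with curcumin alone and the most in *GFI1-36S* with vehicle alone. At intronic sites, vehicle alone gave 80.1%, 13.7% and 38.8% in the 3 genotypes, and curcumin alone 4.62%, 22.4% and 13.2%. These too were above all consensus sites, so the excess was not particular to intergenic sites.

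The net number of sites with curcumin changed by −4021 in *GFI1-36S*, by 741 in *GFI1-36N* and by −808 in *GFI1-KD*, beside −16638, 2748 and −5816 over all consensus sites. The lists also differed in length in the same directions. When 20354 top peaks by −log10 p were taken from every list, *GFI1-36S* had 2367 sites with vehicle and 966 with curcumin. *GFI1-36N* then had 2564 and 2497, and *GFI1-KD* 2410 and 2409. The net change was then −1401, −67 and −1, beside −5447, −232 and −666 over all consensus sites. At intergenic sites the *GFI1-36N* and *GFI1-KD* changes were thus close to 0. Equal numbers of peaks would also remove a real gain or loss in their total, so this setting cannot separate such a change from list length. The share of changed intergenic sites found with vehicle alone was 89.9%, 53.3% and 50.05% in this setting, instead of 95.6%, 31.8% and 66.6%. With equal numbers, vehicle alone gave 62.0% of the *GFI1-36S*, 17.6% of the *GFI1-36N* and 18.1% of the *GFI1-KD* sites, beside 34.6%, 10.6% and 12.4% of all consensus sites. Curcumin alone gave 6.96%, 15.4% and 18.1%, beside 4.69%, 9.42% and 9.03%.

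**Figure D4:**
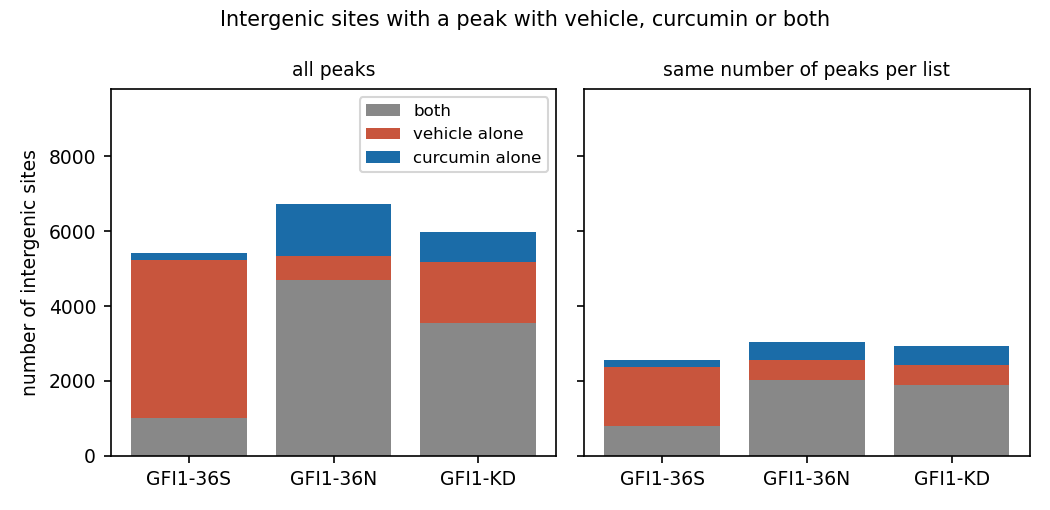
Number of intergenic sites (vertical axis, from 0) with a peak in both libraries of a genotype, with vehicle alone or with curcumin alone, using all peaks (left) or 20354 top peaks from each list (right). The surplus of curcumin-alone sites in *GFI1-36N* and of vehicle-alone sites in *GFI1-KD* on the left is not present on the right.

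Peaks found in only 1 library of a pair were weaker than those of shared sites. In *GFI1-36S* the peaks found with vehicle alone had a median percentile of 44.3 and those found with curcumin alone 25.6, against 69.0 and 40.0 for the shared sites. The first of these lay near the median of all intergenic peaks of that library, 49.0. In *GFI1-KD* the peaks found with vehicle alone had a median percentile of 32.6 and those found with curcumin alone 22.7, against 57.0 and 45.8 for the shared sites. In *GFI1-36N* the values were 26.7 and 39.4, against 52.2 and 60.7. By these medians, peaks without a partner lay lower in their own list than shared peaks in all 3 genotypes. At shared sites the summit height, as fragments divided by the genome background of the library, differed between curcumin and vehicle by a median of −0.55 on the log2 scale in *GFI1-36S* (1014 sites with recovered fragments), 0.16 in *GFI1-36N* (4692) and 0.05 in *GFI1-KD* (3523). Over all shared consensus sites the medians were −0.73, 0.23 and −0.09, so that the *GFI1-KD* value had the opposite sign. At shared intronic sites the medians were −0.27, 0.11 and 0.03, with the same signs as at intergenic sites.

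The changes were also followed across genotypes. Of the 1388 sites found with curcumin alone in *GFI1-36N*, 554 were found with vehicle alone in *GFI1-KD* and 180 with curcumin alone. Both *GFI1-KD* libraries had a peak at 239 and neither had one at 415. Of the 554, 255 had no other peak (3.55% of all intergenic sites, beside 3.26% of all consensus sites). At 267 the only other peak was in *GFI1-36S* vehicle (3.71%, beside 3.30%). The whole split was not counted over all consensus sites, so it cannot be called particular to intergenic sites. A peak with vehicle alone in all 3 genotypes was seen at 90 sites (1.25%, beside 1.44% of all consensus sites) and one with curcumin alone in all 3 at 4 (0.0556%, beside 0.0345%). Between the vehicle libraries, *GFI1-36S* and *GFI1-36N* shared 61.5% of their intergenic sites, *GFI1-36S* and *GFI1-KD* 65.3% and *GFI1-36N* and *GFI1-KD* 61.0%. Over all consensus sites these shares were 69.3%, 74.3% and 69.7%, and those between vehicle and curcumin were 75.1% in *GFI1-36N* and 66.0% in *GFI1-KD*. In both, the overlap was highest within *GFI1-36N* and, of these 5, lowest within *GFI1-KD*. These comparisons share libraries with each other.

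The strongest sites found in 1 library of a pair were looked up by genotype. In *GFI1-36S* with vehicle alone they lay upstream of *Ccr2*, a chemokine receptor of monocytes, of *Mcu*, the mitochondrial calcium channel, and of *Klf6*, a zinc finger transcription factor. The *Ccr2* site, chr9:124079585-124081069, had 23.7 in *GFI1-36S* vehicle, no peak in *GFI1-36S* curcumin, 15.2 and 21.3 in *GFI1-36N*, with 5.22 and 21.2 in *GFI1-KD*. The *Klf6* site, chr13:5845079-5846421, had 20.1, no peak, 24.7, 23.9, 21.6 and 19.8 in that order. Both, like the *Mcu* site, were marked in every library other than *GFI1-36S* curcumin.

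With curcumin alone in *GFI1-36S*, the first 2 sites lay in the T-cell receptor gamma locus, whose gene segments are not annotated as protein-coding, downstream of *Stard3nl*. At chr13:19309474-19311410 the fold enrichment was 15.1 in *GFI1-36S* curcumin and 5.20 in *GFI1-36N* vehicle, and no other library had a peak. At chr13:19336522-19346688 it was 14.7 and 5.03 in the same libraries. The 16 intergenic sites in T-cell receptor loci were marked at 4 (vehicle) and 9 (curcumin) in *GFI1-36S*, 13 and 7 in *GFI1-36N*, with 6 and 1 in *GFI1-KD*. *GFI1-36S* curcumin, with 16.8% of all intergenic sites, thus had more of these sites than 4 of the other libraries. It had promoter peaks at 11 of 12 T-cell markers, and *GFI1-36N* vehicle, which had the most of these sites, at 7. A link between sites and markers was not tested. The third site, upstream of the nuclear receptor gene *Ppara*, had 10.04 in *GFI1-36S* curcumin and 3.14 in *GFI1-36N* curcumin. The 7 sites in immunoglobulin loci had peaks at 4, 1, 5, 7, 5 and 2 in the same order of libraries.

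In *GFI1-36N*, the top sites found with vehicle alone lay near *Zfp330*, *Usp46*, a deubiquitinase, and *Eef2kmt*, with 11.4, 9.34 and 8.19. Those found with curcumin alone lay near *Mpp7*, *Vps8*, a subunit of an endosome tethering complex, and *Hpcal1*, with 20.4, 19.7 and 14.9. All 3 curcumin-alone sites also had a peak in *GFI1-36S* vehicle and in both *GFI1-KD* libraries, and at *Vps8* these were 8.75, 27.9 and 17.4. In *GFI1-KD*, sites near *Arfgef1*, *Cdkn2aipnl* and *Asprv1* were found with vehicle alone at 14.7, 11.9 and 11.4. Those found with curcumin alone were a pair of sites 443 and 469 kb upstream of *Klhl1*, at 12.7 and 13.3, and a site 284 kb upstream of *Klf6*, at 11.2. Both *Klhl1* sites were also marked in *GFI1-36N*, at 4.03 and 3.70 with vehicle and 11.6 and 9.23 with curcumin. In *GFI1-36S* they went the other way, with 5.83 and 3.97 with vehicle and no peak with curcumin. All of these values rest on 1 library each.

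*Gfi1* had 5 intergenic sites, 15.9 to 45.6 kb downstream of its TSS. The site 24.8 kb away, chr5:107698506-107699521, was marked in all 6 libraries, at 5.56 and 4.10 in *GFI1-36S*, 6.90 and 9.69 in *GFI1-36N*, with 5.22 and 6.80 in *GFI1-KD*. The site 35.3 kb away, chr5:107687990-107689085, whose window is printed above, overlapped the noncoding gene *Gm26692* and had 9.93 in *GFI1-36S* vehicle, no peak with curcumin, 8.34 and 12.5 in *GFI1-36N*, with 10.2 and 5.62 in *GFI1-KD*. Of the 5 sites, *GFI1-36N* vehicle had 3, *GFI1-36N* curcumin 5, *GFI1-KD* vehicle 4 and *GFI1-KD* curcumin 3. *Gfi1b*, the paralogue used in erythroid cells and megakaryocytes, had 2 sites 12.6 and 13.1 kb downstream, both marked in *GFI1-36S* and *GFI1-KD* with vehicle and in neither of these genotypes with curcumin, with fold enrichments of 3.46 to 6.04. In *GFI1-36N* the site at 13.1 kb was marked with vehicle and with curcumin, at 3.45 and 3.46, and the other had no peak.

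The sites were not spread evenly over genes. They were nearest to 2908 of 21951 coding genes (13.2%), 1424 of which had 1 site and 83 at least 10. The genes with the highest counts were *Jarid2*, a cofactor of the Polycomb complex PRC2, and *Zfp36l2*, an RNA-binding protein that promotes mRNA decay, with 32 sites each. *Tmem189*, an enzyme of plasmalogen synthesis, had 25, the corepressor *Irf2bp2* 24, the coactivator-binding protein *Cited2* and the helix-loop-helix inhibitor *Id2* 22 each, *Zeb2* 21, the chemokine receptor *Cxcr4* 20, and *Olfr1324* and the mitochondrial import receptor *Tomm20* 19 each. At *Jarid2*, 29 and 6 sites had a peak in *GFI1-36S*, 26 and 27 in *GFI1-36N*, with 25 and 22 in *GFI1-KD*. At *Zeb2* the numbers were 10 and 0, 13 and 20, and 13 and 16, and at *Cxcr4* 14 and 7, 17 and 18, and 16 and 14. Of these genes *Zeb2* and *Cited2* had no site with a peak in *GFI1-36S* curcumin. The promoter of the nearest gene had a peak at 75.9% to 82.6% of the marked sites of a library. With each nearest gene counted once the share was 73.1% to 79.1%, whereas 45.2% to 55.2% of all coding genes had a promoter peak. At the sites without a peak in the library, the nearest promoter had one at 64.4% to 81.2%.

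Sites also lay close to each other. With gaps of up to 12.5 kb, 4617 sites (64.2%) fell into 1476 clusters, 223 of them with at least 5 sites. The largest, chr17:84072362-84167558, held 29 sites over 95.2 kb downstream of *Zfp36l2*, of which 27 and 10 had a peak in *GFI1-36S*, 22 and 25 in *GFI1-36N* and 23 in each *GFI1-KD* library. A cluster of 19 sites lay in the X-linked noncoding gene *Firre*, which helps organize nuclear architecture, and had peaks at 19 and 1 in *GFI1-36S*, 17 and 19 in *GFI1-36N*, with 17 and 16 in *GFI1-KD*. The cluster near *Ptma*, the gene of prothymosin alpha, had 15, 8, 15, 19, 13 and 12 of 19. *Firre* thus kept 1 site in *GFI1-36S* curcumin where *Ptma* kept 8. A cluster of 10 sites near *2010109I03Rik* went the other way, with 3 sites marked with vehicle and 8 with curcumin in *GFI1-36S*, 9 and 9 in *GFI1-36N*, with 6 and 3 in *GFI1-KD*. These clusters were chosen after their values were seen, other than those of *Zfp36l2* and *Olfr1324* (*Firre*), which the rule names through their genes.

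The sites nearest to lists of haematopoietic genes were counted beside all intergenic sites, whose presence per library is given above. Pairs of values below are vehicle and curcumin, for *GFI1-36S*, *GFI1-36N* and *GFI1-KD* in turn. Of 20 regulators of stem and progenitor cells, 13 were nearest to at least 1 site, with 58 sites in all. These had a peak at 50 and 8 in *GFI1-36S*, 37 and 47 in *GFI1-36N*, with 42 and 31 in *GFI1-KD*, and 8.62% were in all 6 libraries. *Lmo2*, *Myb* and *Runx1*, transcriptional regulators needed for blood formation, had 10 sites each, and *Gfi1* and the cytokine receptor gene *Kit* 5 each. At *Lmo2* the counts were 10 and 0, 7 and 8, and 9 and 5, and at *Kit* 5 and 0, 2 and 4, and 3 and 0. *Myb* kept 4 of its 10 sites in *GFI1-36S* curcumin. Of its sites marked in all 6 libraries, the strongest was chr10:21188532-21190070, 27.5 kb upstream, with 12.3 and 5.34, 9.77 and 12.8, and 16.01 and 9.61. The promoters of *Lmo2* and *Kit* had no peak in *GFI1-36S* curcumin, and that of *Myb* had one.

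Among 22 myeloid regulators and genes, 8 were nearest to a site, with 23 sites, at which a peak was present at 14 and 0, 16 and 19, and 17 and 13 in the 3 genotypes. No myeloid site was marked in *GFI1-36S* curcumin. That library had a promoter peak at 1 of 12 neutrophil and myeloid markers and at 3 of 10 erythroid markers, and a link between sites and markers was not tested. *Klf4*, a transcription factor of monocytes, had 10 sites, none of them in all 6 libraries. Of those marked in 5 libraries, the strongest was chr4:55650311-55652540. It had 16.6 in *GFI1-36S* vehicle, 26.9 and 20.8 in *GFI1-36N*, with 24.9 and 38.1 in *GFI1-KD*. *Ly6g* and *S100a8*, both neutrophil genes, had 3 each, the granulocyte regulator *Cebpa* and the integrin gene *Itgam* 2 each. The erythroid and megakaryocyte list had 12 sites at 3 of 17 genes, among them 6 at *Bcl11a*, a repressor of fetal globin genes, with 10 and 0, 10 and 10, and 7 and 8 marked.

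In the T-lineage list 9 of 24 genes had 38 sites, marked at 23 and 6, 30 and 22, and 25 and 24. *Id2* accounted for 22 of these sites, and *Cd28* and *Id3* had 3, *Ctla4* and *Ets1* 2. The *Id2* site chr12:25188311-25191434 was higher with curcumin than with vehicle in *GFI1-36S*, at 8.09 against 3.405, and it had 6.76 and 9.69 in *GFI1-36N*, with 7.15 and 6.40 in *GFI1-KD*. In the B-lineage list 4 of 15 genes had 22 sites, 11 of them at *Bcl6*, 5 at *Foxo1*, 4 at *Bach2* and 2 at *Ikzf1*, marked at 15 and 5, 18 and 16, and 15 and 14. None of the 14 genes in the list of HOX genes and cofactors was nearest to an intergenic site. The HOX cofactor *Meis1*, counted in the stem and progenitor list instead, had 1 site, 405 kb upstream. It had peaks of 3.02 and 6.06 in *GFI1-36N* and 6.92 in *GFI1-KD* curcumin.

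Of the lists, the largest number of sites was found at immediate early and survival genes, where 14 of 18 genes had 97 sites. They were marked at 81 and 21 in *GFI1-36S*, 67 and 81 in *GFI1-36N*, with 76 and 66 in *GFI1-KD*. After *Zfp36l2* these were *Jun* with 13, *Zfp36l1* and the pro-apoptotic gene *Bcl2l11* with 11 each, and *Fos* with 8. The site 17.9 kb upstream of *Zfp36l1*, chr12:80130893-80132986, had 28.7 and 11.0, 22.7 and 30.8, and 32.5 and 26.8. At *Jun*, chr4:95160376-95162491 had 28.2 and 4.45, 19.4 and 23.7, and 33.5 and 20.9. At *Fos*, chr12:85454568-85456687 had 14.9 and 6.25, 23.1 and 19.7, and 23.0 and 26.4. All 3 were marked in the 6 libraries and were lowest in *GFI1-36S* curcumin. With the same number of top peaks per list, stem and progenitor sites were marked at 22 and 6, 20 and 19, and 17 and 18, myeloid sites at 3 and 0, 7 and 8, and 6 and 8, and immediate early sites at 37 and 14, 33 and 32, and 39 and 31. The myeloid count in *GFI1-KD* was then higher with curcumin, where it was lower with all peaks, and the stem and progenitor count in *GFI1-36N* turned from 37 and 47 to 20 and 19.

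In base composition the intergenic sites were nearer to the intronic than to the promoter sites. The 300 bp around the summit had a median G and C content of 49%, against 48% at intronic and 63% at promoter sites. Windows with over 50% G and C and an observed-to-expected CpG ratio above 0.6 made up 5.51% of the intergenic, 1.42% of the intronic and 61.0% of the promoter windows. Intergenic sites in all 6 libraries had such windows at 19.3%, and those within 1 kb of a long noncoding RNA TSS at 18.3%, beside 4.34% of the others. Repeats, masked in the assembly, covered a median of 8.67% of the window, and 319 sites (4.43%) had more than 50% of it masked.

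Short motifs were searched in these windows on both strands, with N for any base. Matches of different motifs may overlap, and a match is not a bound site. The RUNX letters TGTGGT were in 22.6% of the intergenic windows, against 12.2% at promoter sites, 24.0% at intronic sites and 15.1% of the RefSeq promoters of 17492 coding genes. The GATA letters AGATAA, read by GATA1 and GATA2 in blood cells, were in 13.5%, 5.28%, 14.5% and 9.96% of the same windows. AP-1, spelled TGANTCA, was in 9.48%, 3.94%, 8.82% and 7.08%. The interferon response letters GAAANNGAA followed the same order of promoter and other windows, at 13.97%, 6.22%, 14.2% and 8.25%. All 4 motifs were thus more frequent in intergenic than in promoter windows and had similar shares at intergenic and intronic sites. Promoter windows held more G and C, at a median of 63% against 49%, and no background matched for this was used.

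The opposite held for SP/KLF, a box of G and C spelled GGGCGG, which was in 10.5% of the intergenic, 5.73% of the intronic and 44.7% of the promoter sites, and in 22.9% of the intergenic sites found in all 6 libraries. The GFI1 letters AATCNNNGC were in 10.1% of the intergenic, 8.16% of the promoter and 10.1% of the intronic windows, beside 10.9% of the RefSeq promoters. The E-box, a short palindromic core read by helix-loop-helix factors such as those that Id proteins inhibit, is written CAGNTG and was in 57.0% of the intergenic, 49.8% of the promoter and 48% of the RefSeq windows. Fewer windows held the others, which were the PU.1 type of ETS (GAGGAAGT, 4.14% of the intergenic windows), C/EBP (TTGCNNCAA, 2.67%), CTCF (CAGGGGGC, 1.501%), TCF/LEF (CTTTGATC, 1.196%), HOX (TGATTTAT, 1.14%) and NRF1 (GCGCATGC, 0.681%). In the RefSeq promoters these 6 were in 3.17%, 1.87%, 3.50%, 0.852%, 0.880% and 3.61%, so that CTCF and NRF1 were less frequent in the intergenic windows.

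**Figure D5:**
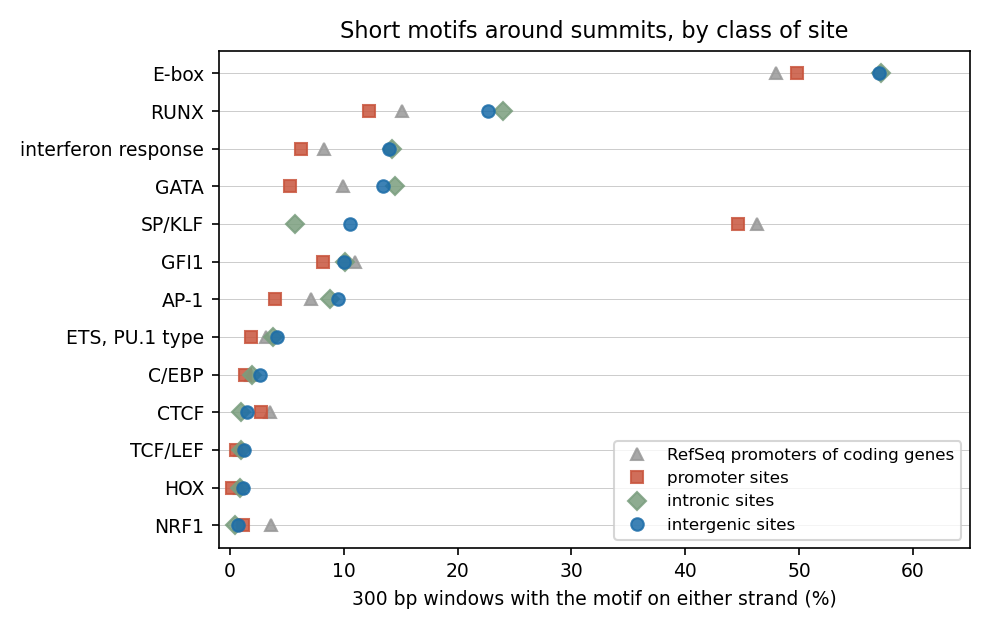
Share of 300 bp windows (%, horizontal axis) that hold each of 13 short motifs on either strand, for intergenic, promoter and intronic sites around their summits and for the RefSeq promoters of coding genes. Intergenic and intronic points lie close together for most motifs, and the SP/KLF points of promoters, 44.7% and 46.3%, lie far to the right of the 10.5% at intergenic sites.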

How the data were processed

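H3K9ac ChIP-seq was deposited as 6 MACS2 peak lists, 1 per library. Cells were cross-linked, chromatin was sonicated and precipitated, and the authors trimmed reads with Trim Galore, aligned them with BWA to mm10, called peaks per library and removed black-listed regions. The processing notes also name SAMtools, Picard and deepTools, and the control used for each list is not given in the sources used here. The deposited lists hold a fold enrichment at the summit (a ratio), the −log10 p and −log10 q, and a score that was not used. The 2 control samples (input and IgG) were not analysed here.

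Peaks overlapping by 1 bp were merged and placed on the GENCODE M21 annotation of GRCm38. Groups followed the labels. Sequences came from GRCm38.p6, and microRNAs and promoters (250 bases before to 50 after the start) from RefSeq tables of that build. Fragments at each summit were recovered as the whole number that gave the listed fold enrichment and, within 0.002, the listed −log10 p. Such a number was found for at least 95.1% of the peaks of a list. Classes of sites were compared by an exact sign-flip permutation test over 6 libraries, with Benjamini-Hochberg adjustment over 6 tests. Shares have Wilson 95% intervals. With 1 library per group no p was computed between groups.

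The members, lists, motifs and tests were chosen with earlier results of these data known. Named were the 10 strongest sites in all 6 libraries, the 10 genes nearest to most sites, the 3 strongest sites of each treatment alone per genotype, up to 5 genes of each list by number of sites, the 3 farthest sites, and *Gfi1* and *Gfi1b*. For list genes 1 site was taken, the strongest of those with a peak in the most libraries. Some items that this rule names are not reported here. Settings tried besides were peaks with a −log10 q of 5 or more, equal numbers of top peaks, 3 lists, 50 kb, genes of all biotypes, merging within 500 bp, exchange of the *GFI1-36S* treatments, and leaving out each library. Python 3.11.15, numpy 2.4.6, scipy 1.17.1, pandas 2.3.3 and matplotlib 3.10.9 were used, and the scripts were tested on simulated data.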

Additional observations from a re-analysis of the deposited data

Results flagged for a closer look

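The number of intergenic sites with a peak moved in opposite directions with curcumin in different genotypes, by −4021 in *GFI1-36S*, by 741 in *GFI1-36N* and by −808 in *GFI1-KD*. Over all consensus sites the changes had the same directions, at −16638, 2748 and −5816, so these were not particular to intergenic sites. The difference between genotypes was not tested, since each group has 1 library. Of the 6 lists of genes with sites, 3 went in the same directions as all sites. Sites nearest to stem and progenitor regulators changed by −42, 10 and −11 in the same order of genotypes, those nearest to myeloid regulators and genes by −14, 3 and −4, and those nearest to immediate early and survival genes by −60, 14 and −10. The other 3 did not follow all sites in *GFI1-36N*, with −17, −8 and −1 for the T-lineage list, −10, −2 and −1 for the B-lineage list and −10, 0 and 1 for the erythroid and megakaryocyte list. None of these differences was tested. With the same number of top peaks from every list, the changes over all intergenic sites were −1401, −67 and −1, beside −5447, −232 and −666 over all consensus sites. This setting would also remove a real gain or loss in the total number of peaks. Myeloid sites were then marked at 6 with vehicle and 8 with curcumin in *GFI1-KD*, the opposite direction to that with all peaks, stem and progenitor sites at 17 and 18 in *GFI1-KD* and 20 and 19 in *GFI1-36N*, and immediate early sites at 33 and 32 in *GFI1-36N*.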

How the results depend on the processing

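No paired analysis was possible because each group has 1 library, so that the groups compared share a single replicate number. With a −log10 q of at least 5, intergenic sites were 18.4% of consensus sites, the shares shared between treatments were 71.8% (*GFI1-36N*) and 61.5% (*GFI1-KD*), the shares of changed sites found with vehicle alone were 37.6% and 55.6%, and the width difference from intronic sites was 15.5 bp (exact p = 0.0625). With equal numbers of top peaks there were 3337 sites (15.9% of consensus), 18.2% of them in all 6 libraries. The shares shared were then 31.0%, 67.0% and 63.9% (*GFI1-36S*, *GFI1-36N*, *GFI1-KD*), those found with vehicle alone 89.9%, 53.3% and 50.05%, and the width difference from intronic sites was reversed to −17.2 bp (exact p = 0.4375). With a peak in 3 lists required, intergenic sites were 18.1% of consensus and 15.3% were in all 6 libraries, 21.6%, 82.0% and 69.5% were shared, and 97.6% (*GFI1-36S*) and 63.1% (*GFI1-KD*) of changed sites were found with vehicle alone. Beyond 50 kb there were 2660 sites (7.06%), 10.2% in all 6 libraries, with 35.4% (*GFI1-36N*) and 58.9% (*GFI1-KD*) of changed sites found with vehicle alone, a presence 3.62 points above intronic sites (exact p = 0.0625) and a median distance of 95.6 kb. With genes of all biotypes there were 4037 sites (10.7%), 8.77% in all 6 libraries, 15.4%, 68.7% and 57.0% shared, 64.6% of changed *GFI1-KD* sites found with vehicle alone and a median distance of 20.9 kb. Merging within 500 bp gave 19.8%, 12.4% in all 6 libraries, 20.1%, 72.4% and 61.8% shared and 36.1 kb. Exchanging the *GFI1-36S* treatments made the share found with vehicle alone 4.40%. The cause of these shifts was not tested.

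Leaving out 1 library gave 6133 to 7065 sites, 18.2% to 19.0% of consensus sites and a median distance of 34.5 to 35.3 kb. The share in all remaining libraries was 12.5% to 39.5%, the highest without *GFI1-36S* curcumin. The shares shared were 18.8% to 20.1%, 70.6% to 74.2% and 59.5% to 62.7%, and those found with vehicle alone 95.7% to 96.7%, 29.9% to 35.0% and 63.9% to 67.5%. Differences from promoter sites were −11.8 to −10.4 in fold enrichment, −21.7 to −17.2 points in presence and −1013.5 to −873.9 bp in width, and those from intronic sites 0.471 to 0.512, 3.53 to 4.86 points and 43 to 51.9 bp. With 5 libraries the smallest possible p, 0.0625, was reached each time. Read depth is not known, and sites near the end of a list can be missed for want of it.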

Other observations

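Intergenic sites were spread unevenly over chromosomes, at 30.5% of the consensus sites of chromosome 13 and 26.2% of those of chromosome 10, against 12.5% on chromosome 11. On chromosome X, 144 intergenic sites were found, 19 of them in *Firre*. Without these, 80.0% of the 125 others had a peak in *GFI1-36S* vehicle and 20.0% with curcumin, close to the shares over all intergenic sites. Of the 19 *Firre* sites, 18 were found with vehicle alone in *GFI1-36S*.

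In the T-cell receptor beta joining segments both intergenic sites had a peak in each *GFI1-36S* library and in *GFI1-36N* vehicle, with a median fold enrichment of 3.13 with vehicle and 15.5 with curcumin in *GFI1-36S* and 5.93 in *GFI1-36N* vehicle. The 4 sites in the variable segments of the same locus had no peak in either *GFI1-36S* library and were all marked in *GFI1-36N* curcumin, at a median of 3.46. Of the 4 sites in *Dleu2*, 2 were marked in all 6 libraries. No intergenic site overlapped *Neat1* or *Xist*.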
